A study of Mus musculus with 11 samples.

Results

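The CCN family of secreted matricellular proteins was followed in mouse embryonic fibroblasts with 2, 1 or 0 intact copies of Actb, the gene of cytoplasmic β-actin. Its members were taken by their older symbols, Cyr61, Ctgf, Nov, Wisp1 and Wisp2, which are now also written Ccn1 to Ccn5. They were 5 of the 46469 gene symbols in the deposited tables. Poly(A) RNA had been sequenced in 11 libraries from BALB/c embryonic fibroblasts of 10.5 day embryos, grown in serum-containing medium to 70% confluence. The groups were 4 libraries with the genotype Actb +/+ (WT), 4 with Actb +/- (Het) and 3 with Actb -/- (KO, replicates 1, 3 and 4, a further KO library having been set aside by the submitters after quality control). The labels do not say whether the replicates came from separate embryos or cultures, nor how the Actb allele was made, so the p-values measure only the spread between these libraries, which may be technical. Levels are FPKM, fragments normalised for transcript length and for the number mapped in the library, scaled between libraries, and can be set side by side between genes because they are per length.

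CCN proteins are matricellular: they sit in the extracellular matrix and signal from it, and are not load-bearing fibres. Most are built from modules that resemble IGF-binding proteins, von Willebrand factor, thrombospondin and cystine-knot growth factors, and Wisp2 lacks the last of these. They bind integrins and heparan sulfate proteoglycans, and they hold or modify growth factors such as BMPs, VEGF and TGF-β. Cyr61 and Ctgf are immediate early genes of fibroblasts and widely used readouts of the coactivators YAP and TAZ with TEAD, and of SRF with MRTF, which are themselves controlled by the state of actin.

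The members lie at separate loci on GRCm38. Cyr61 (gene8372) spans chr3:145646971-145649985 on the minus strand, and Ctgf (gene24989) chr10:24595442-24598683 on the plus strand. Nov (gene36468) at chr15:54745613-54753767 and Wisp1 (gene36610) at chr15:66891325-66923205 share a chromosome and the plus strand. Wisp2 (gene5772) spans chr2:163820778-163833146, also on the plus strand. The coding sequence of Wisp2 has 251 codons in 4 exons in the GENCODE annotation, against 379 codons for Cyr61, 348 for Ctgf, 354 for Nov and 367 for Wisp1, each in 5 coding exons. Wisp1 is the longest locus at 31881 bp and Cyr61 the shortest at 3015 bp.

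Upstream sequence was found in the RefSeq promoter table for 1 of the 5 members, Cyr61. It is shown because Cyr61 was among the members lowest in Het, and because TEAD and SRF sites are the elements for which the gene is best known. The 250 bases before its annotated start, chr3:145649986-145650235 on the minus strand of GRCm38.p6, read 5′ to 3′ as follows, with a TEAD-type match and a TATA box in capitals.
Cyr61: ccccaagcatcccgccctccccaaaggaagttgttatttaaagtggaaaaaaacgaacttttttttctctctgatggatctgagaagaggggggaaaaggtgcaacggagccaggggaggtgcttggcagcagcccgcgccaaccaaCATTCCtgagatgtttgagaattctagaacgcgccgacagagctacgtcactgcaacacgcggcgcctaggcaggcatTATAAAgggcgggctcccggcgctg

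In these 250 bases, 7 motifs were searched on both strands. The TEAD motif GGAATG matched once, on the opposite strand and so printed as its reverse complement, 103 to 98 bases before the start. Of 32851 upstream windows of the same length, 12.64% held the motif. TATAAA matched once at 25 to 20 bases (12.37% of windows), and the cyclic AMP response core ACGTCA once at 59 to 54 bases (6.469% of windows). No match was found for the AP-1 motif TGANTCA (6.749% of windows), the SMAD palindrome GTCTAGAC (0.1674%), the TCF and LEF motif CTTTGATC (0.8006%) or the CArG box bound by SRF (1.467%). The matches do not overlap each other. A match describes these letters and is not evidence of binding, and a missing match says only that the letters are not in this window.

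The level of Actb itself fell in the order of the genotype labels, with a mean of 1319 ± 198.6 FPKM over the 4 WT libraries, 834 ± 23.9 over the 4 Het libraries and 45.6 ± 1.27 over the 3 KO libraries. Errors are SD throughout, over these numbers of libraries. Depth estimated from the smallest FPKM steps ran from 60.7% (WT 3) to 125% (WT 4) of that of WT 1. All 7 fibroblast markers were high enough to be tested and summed to 1283 to 1720 FPKM in WT, 2049 to 2349 in Het and 2859 to 3539 in KO, although Pdgfra (mean 0.211 FPKM, WT 2 apart at 0.159) and Thy1 (0 in every WT library but WT 4) were near 0 in WT. Vim and S100a4 were the largest terms of this sum in each genotype. Col1a2 and Pdgfra were highest in Het. Col1a2 averaged 6.83 FPKM in WT, 192 in Het and 11.5 in KO, and Pdgfra reached 4.31 in Het and 0.959 in KO. The 5 smooth muscle markers summed to 94.7 to 105 FPKM in WT, 233 to 248 in Het and 7100 to 7879 in KO, mostly Acta2. The 6 endothelial markers summed to at most 0.531 FPKM in any library and the 4 blood markers found to at most 4.56, with Ptprc and Tyrobp at 0 throughout. The 5 epithelial markers summed to 1.92 to 2.65 FPKM in WT, 5.34 to 9.01 in Het, most of it Krt18, and 0.753 to 0.959 in KO. The 4 cartilage markers summed to 3.54 to 6.72 FPKM in WT, 4.04 to 4.95 in Het and 21.7 to 32.6 in KO, with Matn1 at 0 throughout. These sums hide opposite changes in Het. Col2a1 averaged 3.18 FPKM in WT, 0.415 in Het and 25.5 in KO, so it made up most of the KO sum. Sox9 averaged 1.47 FPKM in WT, 4.17 in Het and 1.83 in KO. Xist, which is transcribed from an inactive X chromosome, measured 43.8 to 51.2 FPKM in the Het libraries and at most 0.0583 in WT and KO, while the Y-linked Kdm5d was at 0 in all 11. The state of the X chromosomes and the genotype therefore cannot be told apart in any comparison with Het. The part of the fibroblast, smooth muscle, epithelial and cartilage genes in the CCN results was not tested. In bulk RNA, a change in the share of cells that make a transcript and a change in RNA per cell cannot be told apart.

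Cyr61, Ctgf and Wisp1 carried nearly all of the family's mRNA in WT and were lowest in Het, while Nov and Wisp2 were scarce in WT and highest in Het. No member had its Het level between those of WT and KO. All 5 members passed the filter on low values (3 or more libraries with 1 or more scaled FPKM) and so were among the 14940 genes fitted. Wisp3, now Ccn6 and the remaining gene of the family, averaged 0.620 FPKM in WT, 0.745 in Het and 0.415 in KO, reached 1 FPKM in 2 libraries and was not tested.

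**Figure D1:**
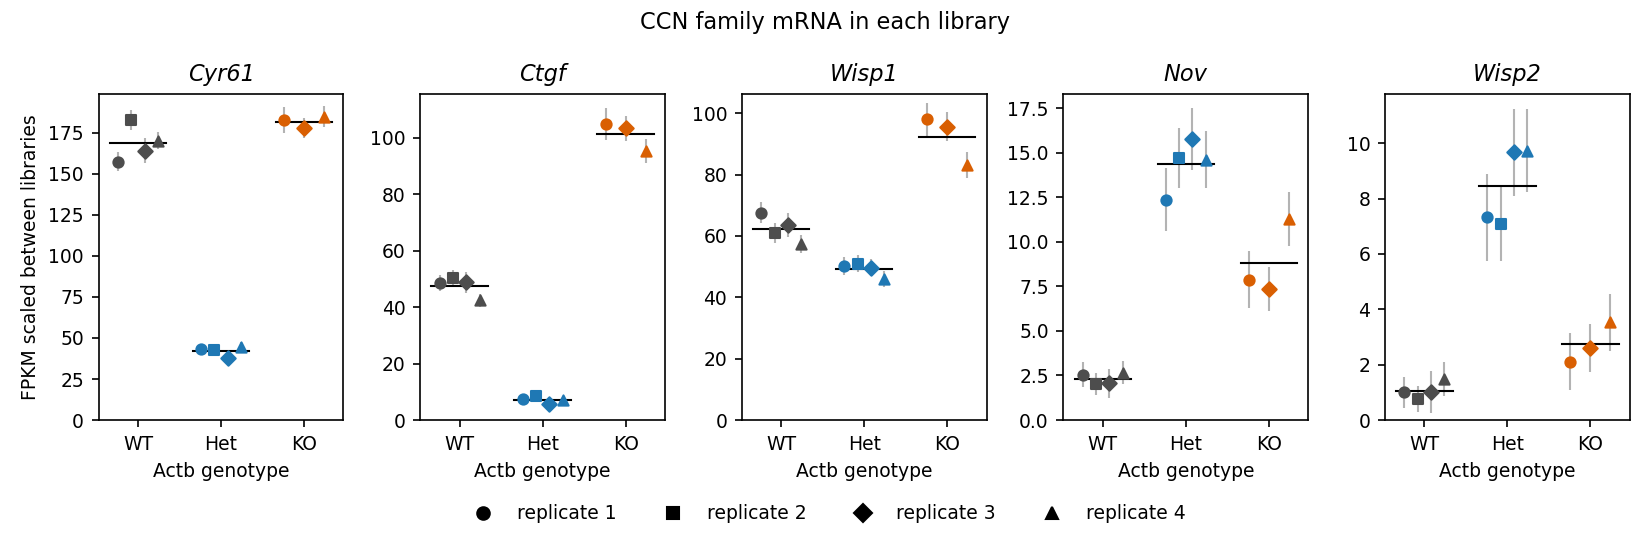
Level of each CCN member in each library, in FPKM scaled between libraries (vertical axis, starting at 0 and with its own range for each gene), by Actb genotype. Points are libraries with their replicate number as the symbol, grey bars are the deposited Cufflinks intervals and black lines are group means. Cyr61, Ctgf and Wisp1 are lowest in Het, and Nov and Wisp2 are highest there.

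Cyr61, a ligand of integrins that promotes adhesion, migration and angiogenesis, was the most abundant member in WT. It measured 157, 183, 164 and 170.2 FPKM in WT 1 to 4, then 43.1, 42.8, 37.5 and 44.7 in Het 1 to 4, and 183, 178 and 185 in KO 1, 3 and 4. The Het libraries lay far under all others, and the KO libraries overlapped WT 2, the highest of the WT libraries. Means were 168.6 ± 10.7 FPKM in WT, 42.0 ± 3.11 in Het and 182 ± 3.47 in KO. Cyr61 was thus 4.01-fold lower in Het than in WT, a fall of 1.98 on the log2(FPKM + 1) scale (SE 0.065, limma adjusted p = 4.755e-09). KO and WT differed by 0.11 (95% confidence interval -0.04 to 0.26, limma adjusted p = 0.221), so that a rise of up to 0.26 in KO was within the error.

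Ctgf, a profibrotic matrix protein induced by TGF-β and by cell tension, spanned the widest range of levels on a fold scale between Het and KO. Its levels were 48.5, 50.4, 48.8 and 42.4 FPKM in WT 1 to 4, 7.37, 8.53, 5.64 and 7.15 in Het 1 to 4, and 105, 103 and 95.4 in KO 1, 3 and 4. No library of one genotype came within the range of another. Het held 15.1% of the WT mean and KO 213%. The log2 differences from WT were -2.58 in Het (SE 0.101, limma adjusted p = 1.719e-08) and 1.08 in KO (SE 0.109, adjusted p = 1.479e-05). From Het to KO the mean rose 14.1-fold, a difference of 3.66 (limma adjusted p = 1.344e-09).

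Wisp1, named as a Wnt-inducible gene and known for promoting fibroblast proliferation and matrix deposition, changed least in Het. It measured 67.6, 60.9, 63.5 and 57.4 FPKM in WT 1 to 4, 50.3, 50.9, 49.7 and 45.9 in Het 1 to 4, and 98.0, 95.6 and 83.1 in KO 1, 3 and 4. The 3 groups did not overlap, with WT 4 the lowest WT library and Het 2 the highest Het library beneath it. Wisp1 fell by 0.34 in Het (SE 0.069, limma adjusted p = 0.00263) and rose by 0.56 in KO (SE 0.075, adjusted p = 0.0001213), which is 78.9% and 148% of the WT mean.

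Nov, a member often described as opposing Ctgf in matrix production, was low in WT and rose in both mutant genotypes. WT 1 to 4 had 2.54, 2.04, 2.05 and 2.66 FPKM, Het 1 to 4 had 12.4, 14.7, 15.8 and 14.6, and KO 1, 3 and 4 had 7.89, 7.34 and 11.3. Every Het library exceeded every KO library, and KO 4 came closest to the Het range. The mean was 6.18-fold higher in Het than in WT (log2 difference 2.21, SE 0.128, limma adjusted p = 3.13e-07). In KO it was 3.81-fold higher (1.55, SE 0.138, limma adjusted p = 5.607e-06).

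Wisp2, the member without the C-terminal module, was the least abundant in WT. Its levels were 1.004, 0.759, 1.01 and 1.49 FPKM in WT 1 to 4, 7.32, 7.08, 9.68 and 9.73 in Het 1 to 4, and 2.11, 2.61 and 3.54 in KO 1, 3 and 4. The groups did not overlap. In FPKM the KO libraries stood nearer to WT than to Het. The KO mean was also nearer to WT on a fold scale, where the Het mean was 3.07 times the KO mean. Het held 7.93 times the WT mean (log2 difference 2.19, SE 0.152, limma adjusted p = 1.148e-06) and KO 2.58 times (0.85, SE 0.164, adjusted p = 0.001404). At these levels the pseudocount of 1 makes the log2 differences of Nov and Wisp2 smaller than their ratios of means.

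The precision of a single library followed the level. The half-width of the deposited Cufflinks interval was 3.13% to 7.89% of the estimate for Cyr61, 4.87% to 5.99% for Wisp1 and 4.24% to 17.3% for Ctgf. It was 10.98% to 39.1% for Nov and 15.4% to 74.0% for Wisp2, with WT 3, the least deep library, at the top of both ranges. These intervals cover estimation within a library and not the spread between libraries.

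In KO against WT, 4 of the 5 members rose and none fell, with a median log2 difference of 0.85. Over all genes tested, 47.1% were called in this comparison, 23.3% higher and 23.8% lower, and the median difference was 0.01. The share of called genes that were higher was 49.4%, and 37.1% when libraries were not scaled. The groups did not overlap for Ctgf, Nov, Wisp1 and Wisp2, as for 46.4% of all genes.

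In Het against WT all 5 members changed, with Nov and Wisp2 higher and Cyr61, Ctgf and Wisp1 lower. In this comparison 43.8% of all genes were called, 21.7% higher and 22.1% lower, and 39.5% had groups that did not overlap, as all 5 members did. By p-value, Cyr61 was number 29 and Ctgf number 55 of the 14940 genes.

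In KO against Het all 5 members differed. This comparison shares its Het libraries with Het against WT. Cyr61, Ctgf and Wisp1 were higher in KO by 2.09, 3.66 and 0.89 on the log2 scale. Nov and Wisp2 were lower in KO by the log2 differences -0.66 (SE 0.138, limma adjusted p = 0.002564) and -1.34 (SE 0.164, adjusted p = 6.74e-05). Of all genes, 44.2% were called here, 22.0% higher and 22.2% lower, and 54.0% had groups that did not overlap.

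**Figure D2:**
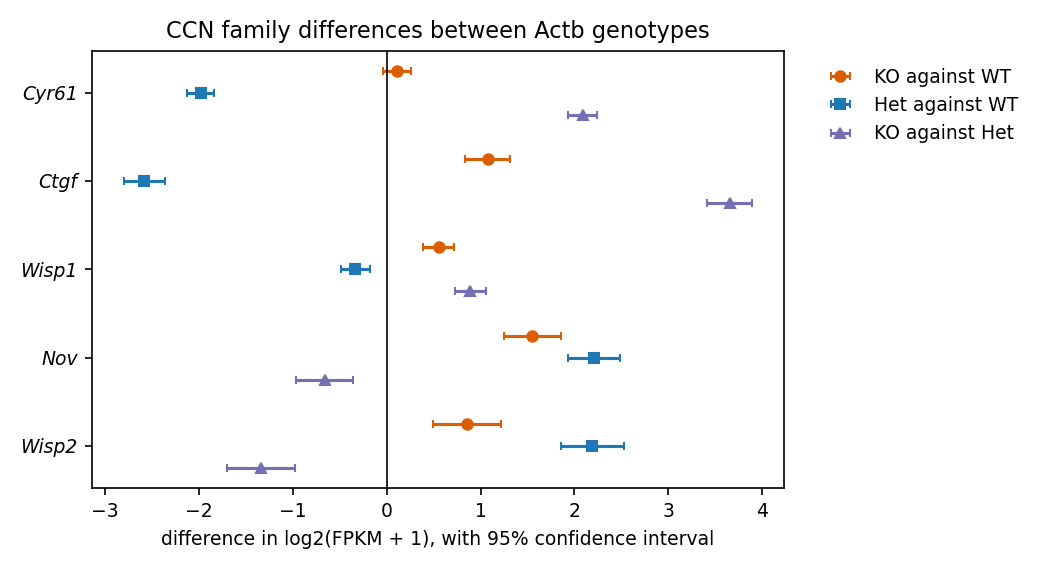
Differences between genotypes for each CCN member in log2(FPKM + 1) (horizontal axis), with 95% confidence intervals from limma as bars. Only the interval of Cyr61 in KO against WT crosses 0, at 0.11, and the intervals of Nov and Wisp2 in KO against Het lie on the other side of 0 from those of Cyr61, Ctgf and Wisp1.

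The position of Het was also set against the midpoint of WT and KO, the level that an even change with the number of intact Actb copies would give on the log2 scale. Cyr61 was below the midpoint by a log2 difference of -2.04 and Ctgf by -3.12, numbers 23 and 26 of 14940 genes by p-value, and Wisp1 by -0.61. Nov was above it by 1.43 and Wisp2 by 1.77 (rises over the midpoint were called for 21.3% of all genes and falls for 22.8%). The limma adjusted p of these 5 differences lay between 1.337e-09 (Cyr61) and 1.834e-05 (Wisp1), and 44.1% of all genes were called in this comparison. Het was lower than both WT and KO, each past the threshold, for 3 members and for 9.43% of all genes. It was higher than both for Nov and Wisp2 and for 9.67% of all genes. Thus 5 of 5 members had Het at an extreme, against 19.1% of genes tested (2853 genes).

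The make-up of the family's mRNA changed with its total. The summed level was 282 ± 10.2 FPKM in WT (274 to 297), 121 ± 2.43 in Het (118 to 124) and 387 ± 8.86 in KO (378 to 396), without overlap. Cyr61 made up 59.8% ± 2.47 of the sum in WT, 34.7% ± 2.14 in Het and 47.0% ± 1.60 in KO. Ctgf made up 16.9% ± 0.956, 5.91% ± 0.873 and 26.2% ± 0.804 in the same order. The share of Wisp1 was 22.1% ± 1.77 in WT and 23.8% ± 1.59 in KO, with ranges that overlap, and 40.6% ± 2.04 in Het. Nov and Wisp2 together went from 1.21% ± 0.247 of the sum in WT to 18.8% ± 2.33 in Het and 3.01% ± 0.792 in KO. The balance of the 2 best-known members also moved, since the level of Ctgf was 28.3% ± 2.60 of that of Cyr61 in WT, 17.0% ± 2.13 in Het and 55.7% ± 3.54 in KO. In single libraries this ratio was 24.9% to 30.8% in WT, 15.0% to 20.0% in Het and 51.6% to 58.1% in KO, with no overlap. These shares are descriptions and were not tested.

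**Figure D3:**
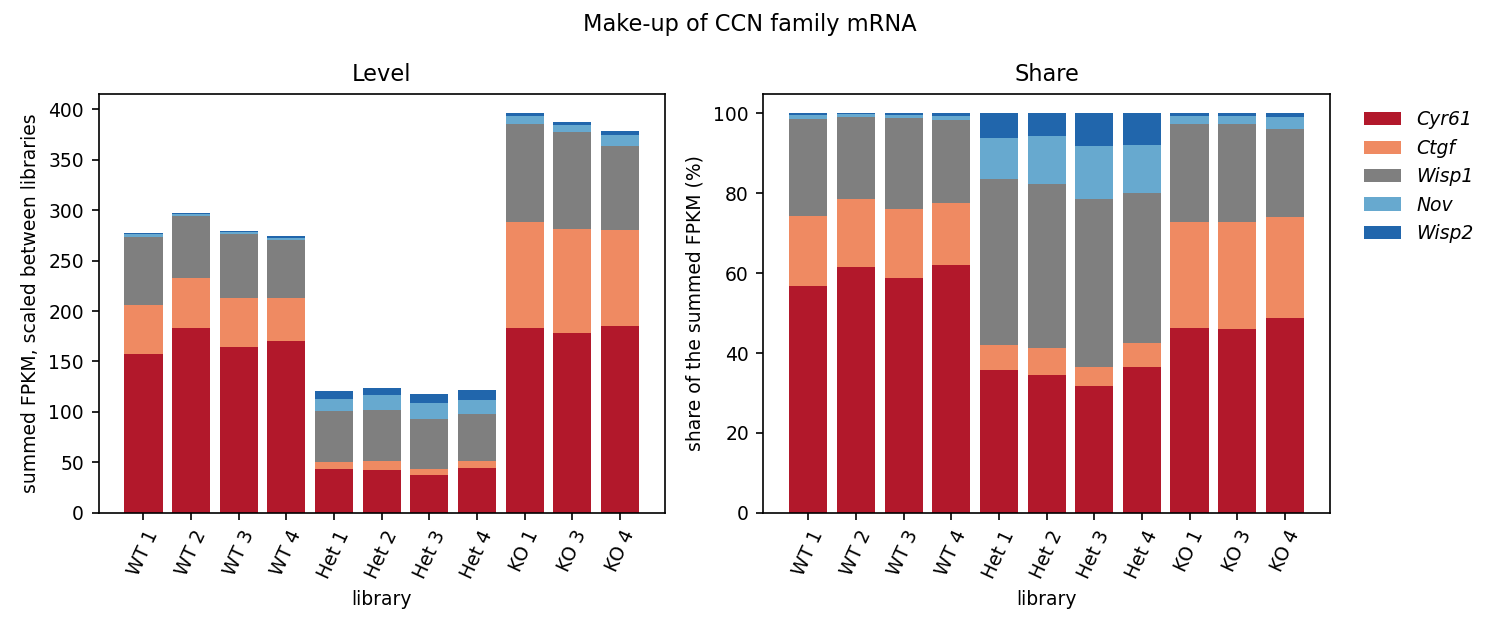
Summed CCN level in each library in FPKM scaled between libraries (left, stacked bars) and the share of each member in that sum in percent (right). The Het libraries have the lowest sums, 118 to 124 FPKM, and the largest shares of Nov and Wisp2, 16.3% to 21.5% together.

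The order of the members differed between genotypes. In WT it was Cyr61, Wisp1, Ctgf, Nov and Wisp2 from highest to lowest, and no neighbours overlapped. In Het it was Wisp1, Cyr61, Nov, Wisp2 and Ctgf, with Wisp2 (7.08 to 9.73 FPKM) and Ctgf (5.64 to 8.53) overlapping. In KO it was Cyr61, Ctgf, Wisp1, Nov and Wisp2, with Ctgf (95.4 to 105 FPKM) and Wisp1 (83.1 to 98.0) overlapping. Ctgf was therefore the third in WT, at the bottom with Wisp2 in Het, and next to Wisp1 below Cyr61 in KO.

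Genes with the most similar pattern were named by Pearson's r of log2(FPKM + 1) over the 11 libraries, among 9019 genes whose mean reached 5 FPKM in some group. Left out of these were the members and genes named as predicted genes, clones, pseudogenes or small RNAs, such as names ending in Rik. The libraries fall into 3 genotype groups, so r mostly compares 3 group means and carries no p. Closest to Cyr61 was Pkp1 (r = 0.9991), a desmosomal plakophilin at 7.84 ± 0.486 FPKM in WT, 1.86 ± 0.166 in Het and 8.52 ± 0.232 in KO. It was followed by Frmd6 (0.9956), a FERM-domain protein linked to Hippo signalling, and Golga4 (0.992), a Golgi golgin. Closest to Ctgf were Cdhr1 (0.9939), a cadherin-related protein, Fam84b (0.9931) and Kansl2 (0.9898), a subunit of a histone acetyltransferase complex. Cdhr1 measured 11.7 ± 0.887 FPKM in WT, 2.73 ± 0.198 in Het and 18.8 ± 2.21 in KO. For Wisp1 they were Dicer1 (0.9927), the microRNA-processing nuclease, Tacc1 (0.9922) and Stbd1 (0.9922). For Nov they were the kinase gene Hipk2 (0.9864), Gas1 (0.9836), a membrane protein of growth arrest and Hedgehog signalling, and Gsto1 (0.9833), a glutathione transferase. Gas1 measured 6.26 ± 0.544 FPKM in WT, 16.9 ± 0.760 in Het and 13.6 ± 0.371 in KO. Closest to Wisp2 were Rpp25 (0.99), an RNase P subunit, Cdc42ep2 (0.9885), a Cdc42 effector, and Bcorl1 (0.9855), a transcriptional corepressor.

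Genes that CCN proteins work with were described by list, as counts, with the median difference over all genes tested at 0.01 in both comparisons with WT. The shares to read them against are those of all genes, 23.3% higher and 23.8% lower in KO, and 21.7% higher and 22.1% lower in Het. Of 9 listed integrin subunits, the main CCN receptors, 7 were tested, and 5 rose and 1 fell in KO (median 0.84), while 2 rose and 3 fell in Het (median -0.21). Itga5, the α chain of the fibronectin receptor, was lowest in Het and highest in KO like Ctgf, at 42.7 ± 3.62 FPKM in WT, 31.0 ± 0.329 in Het and 140.3 ± 2.01 in KO. Itgb3, the β chain of the vitronectin receptor to which Cyr61 binds, was at 0.594 FPKM in WT and rose to 1.62 in Het and 6.43 in KO. Of 5 other receptors tested, 3 rose and 1 fell in KO, and 2 rose in Het, among them Lrp1, an endocytic receptor that takes up Ctgf, at 24.4 ± 9.89 FPKM in WT, 49.3 ± 6.15 in Het and 66.9 ± 10.1 in KO. The count that rose in KO was 1 without WT 3 and 1 without the filter on low values. Of 8 growth factors and matrix proteins bound by CCN proteins, 3 rose and 2 fell in KO (median 0.37), and 6 rose and none fell in Het (median 0.56). Vegfa, the angiogenic factor held by Ctgf, went from 6.17 ± 0.949 FPKM in WT to 11.4 ± 0.487 in Het and 26.3 ± 1.64 in KO. Het was highest for 3 of these 8, Bmp2, Dcn and Bgn, and lowest for none, where 9.67% of all genes were highest in Het. Dcn averaged 0.799 FPKM in WT, 59.7 in Het and 1.17 in KO. Bgn averaged 151 FPKM in WT, 284 in Het and 10.0 in KO.

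The regulators for which Cyr61 and Ctgf serve as readouts were then read at the level of their own mRNA. All 15 listed genes of the Hippo core, YAP, TAZ and TEADs were tested, with 4 higher, 4 lower and 7 not called in KO (median 0.11), and 2 higher, 2 lower and 11 not called in Het (median -0.07). Of all genes, 47.1% were called in KO and 43.8% in Het, so the count in KO is close to that of genes at large and the one in Het is under it. Without WT 4, 4 of them fell in Het. Yap1 measured 44.2 ± 0.963 FPKM in WT, 42.1 ± 1.99 in Het and 44.8 ± 3.06 in KO, and neither difference from WT passed the limma test (adjusted p = 0.334 in Het and 0.832 in KO). None of the 15 was lowest or highest in Het past the threshold on both sides. Of 6 genes tested among SRF, its MRTF coactivators and the Elk factors, 5 rose in KO (median 0.61) and 3 in Het (median 0.20), with none lower, although 1 fell in Het without the filter. The MRTF gene Mkl1 was among the 5 in KO and lost its call in 6 of 19 alternatives. Srf had 13.2 ± 3.43 FPKM in WT, 11.8 ± 1.19 in Het and 28.5 ± 4.98 in KO, and only its rise in KO passed the test (1.07, limma adjusted p = 0.000536).

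Other targets of YAP and TEAD did not all share the Het pattern of Cyr61 and Ctgf. Of 20 listed 19 were tested, and 11 rose and 2 fell in KO (median 0.51), or 4 fell without scaling. In Het, 6 rose and 8 fell (median -0.12). Het was lowest for 5 of the 19, namely Amotl2, Crim1, Gadd45a, Ccdc80 and Nuak2, and highest for Ptpn14, where 9.43% of all genes were lowest and 9.67% highest in Het. The fall of Ccdc80, a matrix protein, was the largest of these in Het, from 50.7 ± 2.09 to 20.8 ± 0.690 FPKM (-1.25), compared with -1.98 for Cyr61 and -2.58 for Ctgf. F3, the tissue factor of coagulation, rose instead, from 7.23 ± 0.239 FPKM in WT to 24.1 ± 2.44 in Het and 79.9 ± 4.45 in KO.

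**Figure D4:**
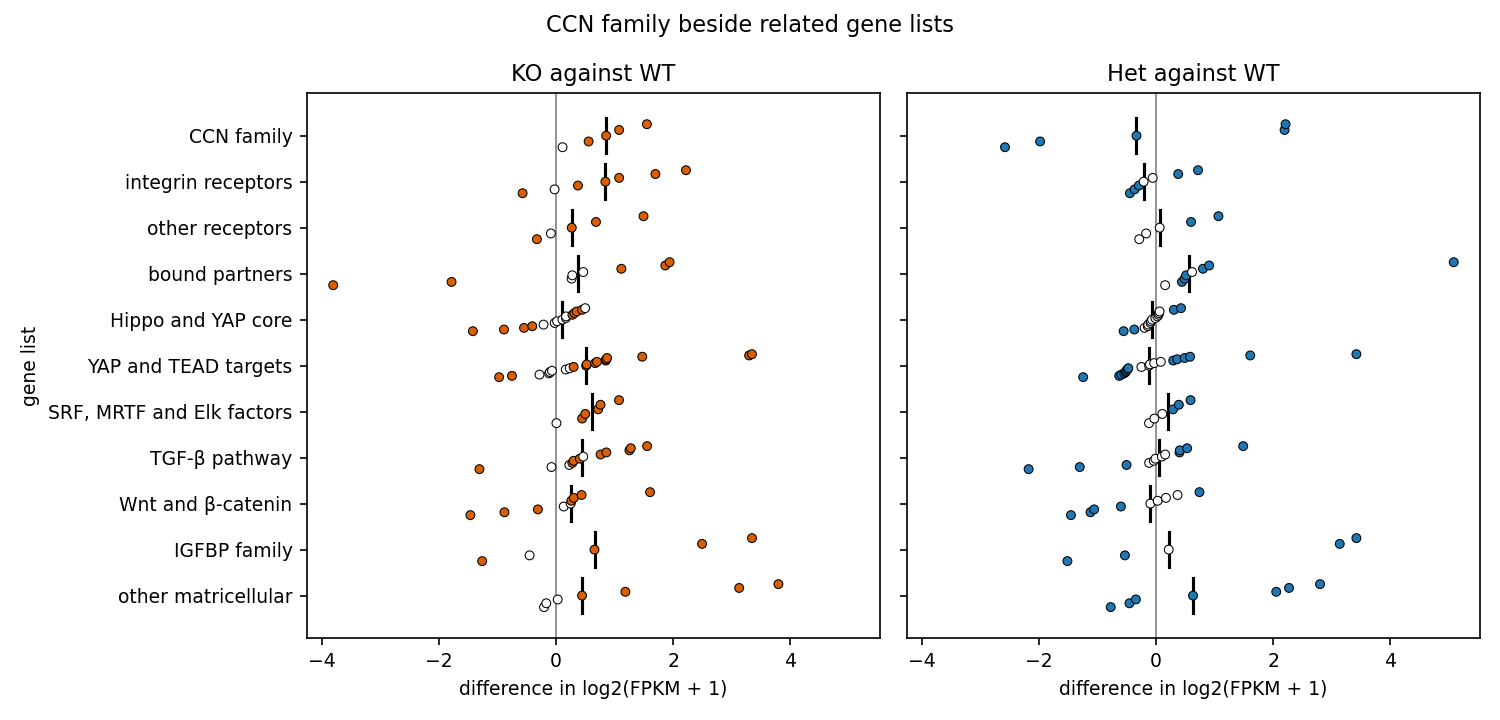
Differences from WT in log2(FPKM + 1) (horizontal axis, the same in both panels) in KO (left) and Het (right) for each tested gene of the CCN family and of 10 related lists (vertical axis). Filled points passed the limma test, open points did not, and black bars are list medians. In Het the CCN points run from -2.58 to 2.21, and most points of the Hippo core are open.

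In the TGF-β pathway, which induces Ctgf, 8 of 12 genes rose and 1 fell in KO (median 0.43), and 4 rose and 3 fell in Het (median 0.04). Tgfbr2, the ligand-binding receptor, fell in both mutants, from 51.4 ± 2.41 FPKM in WT to 20.2 ± 1.07 in Het and 20.2 ± 0.272 in KO. The ligand gene Tgfb3 rose in both, from 12.0 ± 1.52 FPKM in WT to 17.6 ± 0.718 in Het and 29.8 ± 2.27 in KO. Of 13 listed genes of the Wnt pathway, after which Wisp1 and Wisp2 are named, 9 were tested. In KO 4 rose and 3 fell (median 0.25), or 2 rose without KO 1 or without KO 4. In Het 1 rose and 4 fell (median -0.10), and 2 rose without WT 4, with a pseudocount of 0.1 or with a replicate block. Axin2, a feedback target of the pathway, fell from 3.05 ± 1.01 FPKM in WT to 0.451 ± 0.124 in Het and 0.440 ± 0.0425 in KO. Rnf43, another feedback gene, rose in KO from 0.156 ± 0.0460 to 2.52 ± 0.344 FPKM and was at 0.298 ± 0.0437 in Het, where its difference did not pass the test. These values are sums per symbol. With a single locus kept for each symbol, the log2 difference of Rnf43 in KO was 1.06, compared with 1.60 for the sum. Of the 9, Lef1 and Tcf7, partners of β-catenin, were lowest in Het and Tcf7l2 was highest there. Of all genes, 9.43% were lowest and 9.67% highest in Het. Their KO levels did not follow Wisp1 and Wisp2, which both rose in KO. Tcf7 fell there from 8.37 to 6.56 FPKM. Lef1 (1.37 FPKM in WT, 1.59 in KO) and Tcf7l2 (4.25 and 5.26) did not pass the test in KO.

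Relatives by module or by role moved in both directions. Of 5 IGF-binding protein genes tested, 3 rose and 1 fell in KO, and 2 rose and 2 fell in Het. Igfbp7 was lowest in Het and Igfbp4 highest, at 47.7 ± 1.30 and 30.8 ± 2.05 FPKM there. Of 7 other matricellular genes tested, 4 rose and none fell in KO (median 0.44), or 1 fell without scaling or without WT 1, and 4 rose and 3 fell in Het (median 0.63). Het was lowest for 2 of these 7, Thbs1 and Tnc, and highest for 2, Thbs2 and Thbs3. Of all genes, 9.43% were lowest and 9.67% highest in Het. Thbs1, which activates latent TGF-β, was lowest in Het like Ctgf, at 104 ± 5.77 FPKM in WT (WT 2 apart at 112), 60.0 ± 2.04 in Het and 237 ± 22.1 in KO. Thbs2 was highest in Het like Nov and Wisp2, at 8.28 ± 0.365 FPKM against 0.927 ± 0.0580 in WT and 0.969 ± 0.166 in KO. Unlike Nov and Wisp2, it did not rise in KO against WT (limma adjusted p = 0.796).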

How the data were processed

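Per the submitters' processing notes, reads were placed with TopHat2 2.1.0 on GRCm38.p4 and FPKM estimated with Cufflinks 2.2.1, and the notes also name Cuffdiff. The deposited FPKM tables, 1 for each of 11 libraries (4 WT, 4 Het, 3 KO), list 48892 loci with the authors' intervals and no counts, so no count model was used. For WT 1, 31 symbols were replaced with those that the other libraries gave for the same locus. FPKM were summed per symbol. Each library was then divided by a size factor, its median ratio to the geometric mean of 13981 genes (0.9411 to 1.043). A gene was tested if 3 or more libraries reached 1 scaled FPKM, which 14940 did. Limma 3.58.1 (R 4.3.3) fitted log2(FPKM + 1) by genotype, with all libraries in 1 fit and a mean-variance trend. The log2 scale with this pseudocount understates changes of low genes. Within each comparison the p-values of all these genes were adjusted together (Benjamini-Hochberg), with a threshold of 0.05, and "rose" and "fell" are used for genes past it. The fit was tested on simulated data.

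Relative depth was estimated from the smallest FPKM steps. The members and the gene lists were chosen with earlier results of these data known, so counts over them are descriptions. Named by rule were the members, Wisp3 and Actb, for each list up to 4 genes past the threshold with the largest difference in KO and up to 2 in Het (otherwise the 2 with the highest FPKM), and the 3 genes most like each member. Some genes that the rule takes are left out here. Genes described for having Het lowest or highest, Yap1, Vim, marker genes at 0 and the X- and Y-linked genes were added after their values were seen. Positions are on GRCm38, counted from 1. Promoter sequence and its build are from RefSeq, and codon and exon numbers from GENCODE. Alternatives were other scaling, pseudocount, filter, locus choice, trend, fit groups, a replicate block and leaving out each library.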

Additional observations from a re-analysis of the deposited data

Results flagged for a closer look

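Single libraries stood apart from the other 3 of their group in 5 of the 128 groups of 4 tested, by Dixon's criterion, which chance alone meets in about 1 group in 20. None of the 5 was a CCN member, and all were in WT. Fn1, fibronectin, was lowest in WT 1 at 178.01 FPKM, with the next library at 191.44. Thbs1, thrombospondin, was highest in WT 2 at 112.16 FPKM, with the next at 101.01. Postn, periostin, was highest in WT 3 at 0.44337 FPKM, with the next at 0.13792. The fibroblast surface marker Thy1 was highest in WT 4 at 0.098614 FPKM and at 0 in the others, and Pdgfra was lowest in WT 2 at 0.15891 FPKM, with the next at 0.22464.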

How the results depend on the processing

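For the CCN members and the counts of called genes, none of the 525 values under an alternative changed direction or its side of the threshold, or moved a count by more than 1.5 times. Members called stayed at 4 in KO against WT, 5 in Het against WT and 5 in KO against Het. Cyr61 in KO against WT lay between 0.01 and 0.15 (adjusted p 0.115 to 0.922). With libraries left out 1 at a time, Ctgf lay between 1.02 and 1.12 in KO and -2.66 and -2.48 in Het, and Nov between 1.38 and 1.66 in KO. Genes called with a library left out numbered 5787 to 7918 in KO against WT (7041 with all), 5676 to 7307 in Het against WT (6544) and 5470 to 7275 in KO against Het (6604). Without scaling, the share of called genes that were higher was 37.1% in KO against WT (49.4% with it) and 36.5% in KO against Het (49.8%). Of the values for other genes and lists, 57 lost their call, 33 moved and 3084 did neither. Col1a1 in Het lost its call in 9 of 19 alternatives and Tagln in Het in 14 of 19. In KO against WT, Tcf7l1 lost its call in 13 of 19, Lrp6 in 12, Mkl1 in 6 and Notch1 in 3.

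The labels number the replicates 1 to 4 in each genotype. Same-numbered libraries of different genotypes had correlations of their deviations from -0.101 to 0.353, with 5 of 10 pairs over 0.1. Pairs with different numbers ran from -0.399 to 0.18, with 5 of 30 over 0.1. The same-numbered pairs over 0.1 were all of replicates 1 and 4, and those of replicates 2 and 3 were all negative. By this measure 6 of 11 libraries correlated best with their own number, a hint from the data and not from the design. A fit with a replicate block called 7293, 6990 and 6879 genes in the 3 comparisons and the same number of members.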
